A study of Mus musculus with 6 samples.

Results

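Chemokine ligands are small proteins, secreted or held on the cell surface, that guide leukocytes along a concentration gradient by binding G protein-coupled receptors. They are grouped by the spacing of their first cysteines into CC, CXC, CX3C and XC ligands. Ligands of CXCR2 chiefly attract neutrophils, ligands of CCR2 attract monocytes, and Cxcl12 guides lymphocytes and blood stem cells through CXCR4. Fibroblasts of pancreatic ductal adenocarcinoma (PDAC) that secrete such inflammatory factors are called inflammatory cancer-associated fibroblasts, and pancreatic stellate cells (PSCs), the vitamin A-storing fibroblasts of the pancreas, are a precursor of them. The ligand genes examined here were the rows of the count table whose Ensembl identifier belongs to a protein-coding gene named Ccl or Cxcl with a number, or Cx3cl1, Xcl1, Pf4 or Ppbp, in GENCODE release M21. These were 46 of the 55426 rows, with 41 different gene symbols. Of these, 39 lay on assembled chromosomes and 7 on unplaced scaffolds of GRCm38, where near-identical copies of Ccl19, Ccl21 and Ccl27 genes are annotated.

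RNA was sequenced from 6 samples of primary mouse PSCs, 3 kept at 21% O2 and 3 at 1% O2 for 48 h, here called normoxic and hypoxic samples. All 6 were PSCs of the C57BL/6 strain cocultured with mT3 PDAC organoids, which come from a mouse pancreatic tumor line, and no PSCs without organoids were analysed here. The PSC lines came from wild-type mice of both sexes aged 8 to 12 weeks and were used at passages 2 to 4. The PSCs sat in Matrigel in a transwell insert above the organoids, so both cell types met the same oxygen level and shared the medium. The labels do not tie a replicate to a mouse or a PSC line, so the p-values below measure the spread between these samples only. The comparison asks how the chemokine genes of PSCs that share medium with tumor cells differ between low and atmospheric oxygen.

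Library totals ran from 24749601 to 31925054 counts, and 3 counts corresponded to 0.0943 to 0.122 CPM. CPM are counts per 1000000 counts of the tested genes after TMM scaling. All 13 stellate cell and fibroblast markers were detected and tested, and 2 were higher in hypoxic samples, 3 were lower and 8 were not called, where of all tested genes 18.9% were called higher and 15.3% lower by the rule given below. Their summed level, carried mostly by collagen genes, was 1.01 times as high in hypoxic as in normoxic samples. The epithelial markers Epcam and Cdh1 had at most 1 count in a sample, although the keratin gene Krt19 rose from 0.715 to 22.1 CPM. With it the sum of 10 epithelial and tumor cell markers was 3.23 to 5.40 CPM in normoxic and 25.0 to 29.0 CPM in hypoxic samples, and of the 3 tested, Krt19 was higher and 2 were not called. Of 8 endothelial markers, which summed to 15.7 to 21.8 CPM in normoxic and 21.8 to 30.9 CPM in hypoxic samples, 7 were tested, 2 were higher and 2 were lower. Krt19 is also a mesothelial marker, and of 5 such markers, which summed to 21.1 to 29.5 CPM in normoxic and 61.2 to 65.5 CPM in hypoxic samples, both that could be tested, Krt19 and Wt1, were higher. The other mesothelial markers, Msln, Upk3b and Lrrn4, had at most 16 counts in a sample. The epithelial and mesothelial sums both contain Krt19, so they did not rise independently. They moved in the direction of the ligands that rose, and their part in that rise was not tested. Macrophage markers were present in every sample, at a summed level of 1109 to 1968 CPM in normoxic and 574 to 1049 CPM in hypoxic samples. In the mean of either group, most of this sum came from the marker Lyz2. Of these 17 markers, 16 could be tested, 10 were lower in hypoxic samples, none was higher and 6 were not called. None of the 17 was at 0 in all samples, and Cx3cr1, with 2 to 7 counts a sample, was too low to test. Replicate 2 had the highest macrophage marker sum and replicate 1 the lowest in both groups. In bulk RNA, fewer cells of a type and less RNA per cell cannot be told apart. Neutrophil markers summed to at most 1.40 CPM, and the defining markers S100a9, Ly6g and Retnlg were at 0 in every sample.

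Of the 46 ligand rows, 24 had enough counts to be tested and 22 did not. A gene was called when it differed by more than 1.5-fold and its edgeR adjusted p was under 0.05. By that rule, 11 of the 24 tested ligands were higher in hypoxic samples and 6 were lower, while 34.2% of all 16207 tested genes were called, 18.9% as higher and 15.3% as lower. The remaining 7 tested ligands were not called. Of the 24, 17 had CPM that did not overlap between the groups, 11 above and 6 below. Of all tested genes 68.9% did not overlap, 34.9% above and 34.0% below, so most genes of this comparison had such a gap. The median log2 fold change of the tested ligands was 0.86, beside a median of -0.00398 over all tested genes. Of 9 tested CXC and CX3C ligands, 6 were higher and 1 was lower, and of 15 tested CC ligands 5 were higher and 5 were lower. Whether the families differ in this was not tested.

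**Figure D1:**
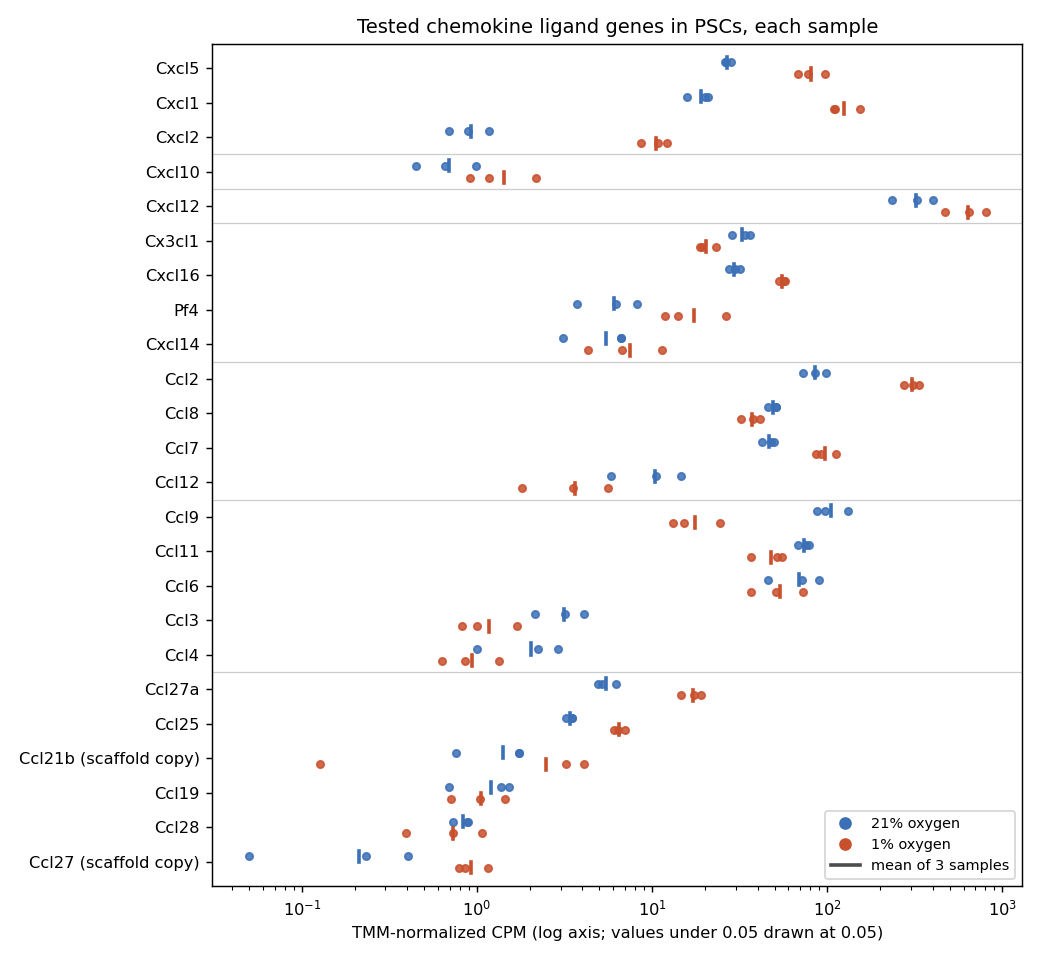
TMM-normalized CPM (log axis) of the 24 tested chemokine ligand genes in each sample, with 3 points for 21% oxygen, 3 for 1% oxygen and a bar for each mean, in blocks by receptor group. Cxcl1 lies between 15.7 and 20.8 CPM at 21% oxygen and between 109 and 155 CPM at 1%, while Ccl9 falls from between 87.3 and 132 CPM to between 13.2 and 24.5 CPM.

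**Figure D2:**
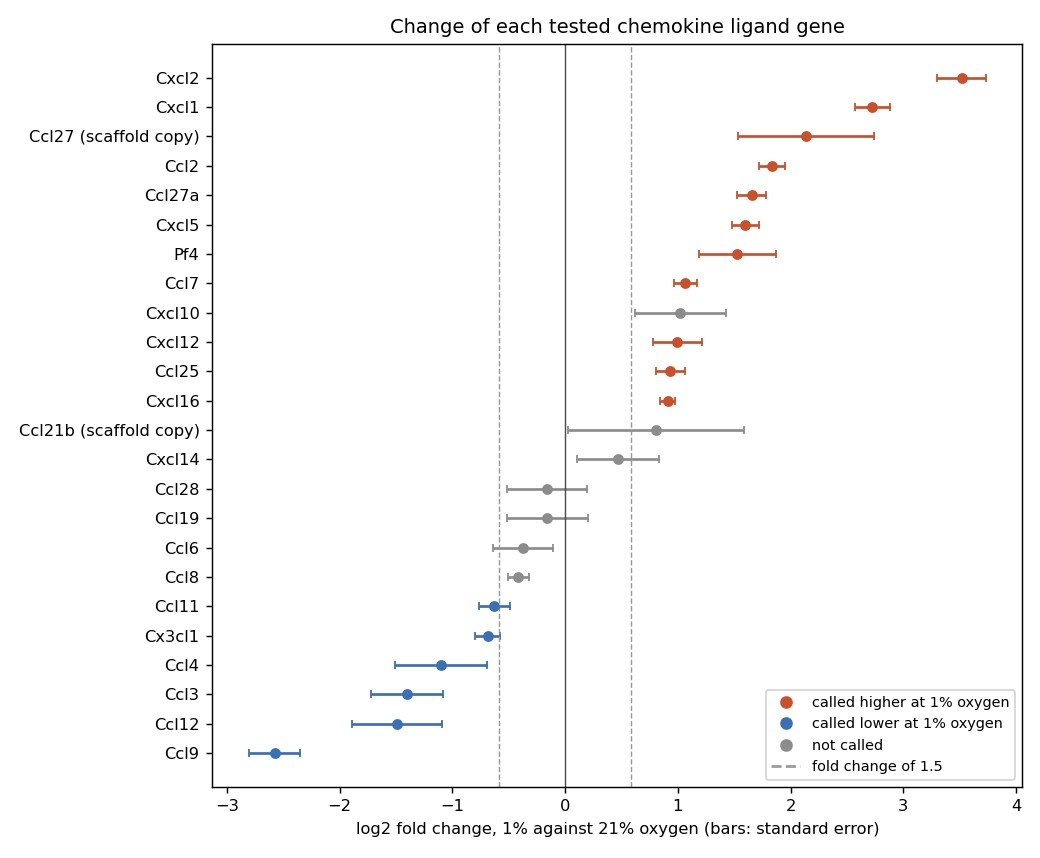
Log2 fold change of each tested ligand gene, 1% against 21% oxygen, with bars of 1 standard error, dashed lines at a fold change of 1.5 and colors for the call. Values run from -2.58 for Ccl9 to 3.52 for Cxcl2, with 11 genes called higher and 6 called lower.

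Of the 6 CXCR2 ligands, the 3 that could be tested, Cxcl1, Cxcl2 and Cxcl5, were higher in hypoxic samples, by 3.02-fold to 11.5-fold, where 18.9% of all tested genes were called higher. These proteins bind CXCR2, the main chemokine receptor by which neutrophils enter inflamed tissue, and Cxcl1 is among the markers of inflammatory fibroblasts in PDAC.

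Cxcl1 (ENSMUSG00000029380, chr5:90891241-90893115, plus strand) had 15.7, 20.8 and 20.2 CPM in normoxic replicates 1 to 3 and 109, 111 and 155 CPM in hypoxic replicates 1 to 3. The lowest hypoxic sample thus stood far above the highest normoxic one. The mean rose from 18.9 ± 2.74 to 125 ± 25.8 CPM (SD, n = 3 per group), and the log2 fold change was 2.72 ± 0.16 (SE, edgeR adjusted p = 1.1e-06). Cxcl2 (ENSMUSG00000058427, chr5:90903871-90905938, plus strand), close to Cxcl1 in sequence and position, was scarce in normoxia, at 0.693, 1.18 and 0.893 CPM, which were 18, 31 and 22 counts. In hypoxia it had 8.68, 10.8 and 12.2 CPM, or 221, 339 and 389 counts. No sample of one group reached the other, and the log2 fold change of 3.52 ± 0.21 (SE, edgeR adjusted p = 1.6e-06) was the highest of the 24 tested ligands. Cxcl5 (ENSMUSG00000029371, chr5:90759360-90761624, plus strand) was the most even of the group in normoxia, at 25.9, 26.3 and 28.0 CPM. It had 77.4, 67.9 and 97.3 CPM in hypoxia, again without overlap, and its log2 fold change was 1.60 ± 0.12 (SE, edgeR adjusted p = 5.76e-06).

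The other 3 CXCR2 ligands were too low to test. Cxcl3 had 2, 1 and 1 counts in normoxic and 6, 7 and 3 counts in hypoxic samples. Ppbp, a ligand stored in platelets, had at most 4 counts in a sample, and Cxcl15, known mainly from lung epithelium, had none. The receptor genes Cxcr2 and Cxcr1, named after their values were seen, had no counts in any sample, which allows at most 3 counts, or 0.0943 to 0.122 CPM. In hypoxic samples the neutrophil markers summed to at most 0.670 CPM.

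Promoter sequences are shown for the ligands with the highest and the lowest fold change and for Cxcl1. Cxcl1 and Cxcl2 are textbook targets of NF-kB, the transcription factor through which interleukin-1 and tumor necrosis factor induce chemokines. The windows run from 250 bases before to 50 bases after the RefSeq transcription start on GRCm38.p6 and are written in the direction of transcription. Capitals mark letters that match GGG and TTCC separated by any 3 letters (an NF-kB core), TTTC and TTTC separated by any 2 letters (the core of an interferon-stimulated response element) or ACGTG (the core bound by hypoxia-inducible factors) on either strand, and overlapping matches run together. The windows of Cxcl2, Cxcl1 and Ccl9 lie at chr5:90903649-90903948 (plus strand), chr5:90890995-90891294 (plus strand) and chr11:83578587-83578886 (minus strand). That of Cxcl10, an interferon-driven ligand described further on, lies at chr5:92348840-92349139 (minus strand) and was added after its values were seen.
Cxcl2: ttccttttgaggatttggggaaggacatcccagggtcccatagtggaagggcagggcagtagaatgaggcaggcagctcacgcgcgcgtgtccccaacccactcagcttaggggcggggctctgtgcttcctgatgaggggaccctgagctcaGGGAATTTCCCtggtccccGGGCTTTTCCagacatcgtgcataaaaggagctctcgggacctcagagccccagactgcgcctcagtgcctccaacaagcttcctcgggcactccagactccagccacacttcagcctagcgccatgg
Cxcl1: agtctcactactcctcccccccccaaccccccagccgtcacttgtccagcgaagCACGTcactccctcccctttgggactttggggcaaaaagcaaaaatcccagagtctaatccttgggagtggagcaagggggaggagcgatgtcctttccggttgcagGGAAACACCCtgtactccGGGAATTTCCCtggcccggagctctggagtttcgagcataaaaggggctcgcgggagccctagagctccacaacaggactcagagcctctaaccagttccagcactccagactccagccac
Ccl9: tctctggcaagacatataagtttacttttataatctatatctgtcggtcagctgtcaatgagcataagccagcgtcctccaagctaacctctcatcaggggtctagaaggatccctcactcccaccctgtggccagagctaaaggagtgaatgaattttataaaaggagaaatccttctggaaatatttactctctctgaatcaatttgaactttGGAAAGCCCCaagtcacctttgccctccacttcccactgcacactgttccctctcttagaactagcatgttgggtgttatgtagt
Cxcl10: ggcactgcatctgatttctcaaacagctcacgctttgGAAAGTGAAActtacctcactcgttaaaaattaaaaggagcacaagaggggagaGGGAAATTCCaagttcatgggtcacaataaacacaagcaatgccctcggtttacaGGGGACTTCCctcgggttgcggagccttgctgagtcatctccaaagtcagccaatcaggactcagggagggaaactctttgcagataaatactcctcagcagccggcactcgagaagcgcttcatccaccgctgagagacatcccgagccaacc

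The NF-kB core occurred in 5.56% of all 32851 RefSeq windows of this length and in those of 4 of the 16 tested ligands on chromosomes that had one. Cxcl2 held it 3 times, with first bases 97, 96 and 78 bases before the start, and Cxcl1 3 times, 89, 71 and 70 bases before it. In each gene a pair of these matches, on opposite strands, overlaps with a shift of 1 base. Among all 29 ligands with a window, tested or not, 7 held the core. The untested ones were Cxcl3, with 3 matches 73, 72 and 50 bases before the start, Ccl1, with 2 overlapping matches, and Ccl20, with 1. Cxcl10 held it 2 times, at 159 and 104 bases before the start, and Ccl9, the ligand that fell most, held it 1 time at 35 bases before the start. A looser form, GGG and CC separated by any 5 letters, was in 50.8% of all windows and in 8 of the 16. The interferon core was in 3.44% of all windows and in those of Cxcl10, Cxcl14 and Ccl19. ACGTG was in 19.6% of all windows and in 2 of the 16, those of Cxcl1, 196 bases before the start, and Pf4, 44 bases after it. A window was matched by symbol for 29 of the 41 ligand symbols. The other symbols were Ccl2, Ccl4, Ccl5, Ccl7, Ccl11, Ccl21c, Ccl24, Ccl26, Ccl27, Cxcl5, Cxcl16 and Cxcl17.

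The interferon-driven ligands Cxcl9 and Cxcl10, which recruit T cells and natural killer cells through CXCR3, were scarce in both groups. Cxcl10 (ENSMUSG00000034855, chr5:92346638-92348889, minus strand) had 0.654, 0.987 and 0.446 CPM in normoxic and 1.18, 2.17 and 0.911 CPM in hypoxic samples, from 11 to 68 counts. The lowest hypoxic sample was below the highest normoxic one. Its log2 fold change was 1.02 ± 0.41 (SE, edgeR adjusted p = 0.0518), so it was not called, and the adjusted p ran from 0.0104 to 0.239 over the alternative settings. Cxcl9 had 13, 15 and 5 counts in normoxic and 1, 5 and 8 counts in hypoxic samples, too few to test. Cxcl11 is not annotated as protein-coding in this release and was not counted among the ligands. Exons of Cxcl10 overlap those of Art3 on the opposite strand over 133 bases, and it is not stated whether the counting used strand. Art3 had 10.9 CPM in normoxia and 9.996 CPM in hypoxia.

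Cxcl12 (ENSMUSG00000061353, chr6:117168535-117181367, plus strand), the ligand of CXCR4 and a classical product of stromal cells, held more counts than any other ligand in each of the 6 samples. It had 235, 404 and 324 CPM in normoxic and 468, 802 and 647 CPM in hypoxic samples. Every hypoxic sample was above every normoxic one, though replicate 2 was the highest and replicate 1 the lowest within both groups, the same order as the macrophage marker sum. The mean rose 1.99-fold, from 321 ± 84.1 to 639 ± 167 CPM (SD, n = 3 per group), with a log2 fold change of 0.99 ± 0.22 (SE, edgeR adjusted p = 0.00331). Leaving out each sample in turn gave log2 fold changes from 0.79 to 1.19. The macrophage marker sum was 0.503 times as high in hypoxia, and the part of macrophage RNA in the level of Cxcl12 was not tested. Both receptors of Cxcl12 rose as well. Ackr3, an atypical receptor that takes Cxcl12 up without G protein signaling, had 16.1, 16.02 and 17.9 CPM in normoxic and 86.4, 103 and 91.5 CPM in hypoxic samples, a log2 fold change of 2.49 ± 0.08 (SE, edgeR adjusted p = 6.2e-08). Cxcr4 rose from a low level, with 8, 11 and 13 counts in normoxic and 33, 43 and 39 counts in hypoxic samples (log2 fold change 1.63 ± 0.28, SE, edgeR adjusted p = 0.000801).

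Among the other CXC, CX3C and XC ligands, Cxcl16 and Pf4 rose, Cx3cl1 fell and Cxcl14 was not called. Cxcl16 (ENSMUSG00000018920, chr11:70453983-70459984, minus strand), a membrane-bound ligand of CXCR6 that also serves as a scavenger receptor, had 27.3, 29.6 and 31.6 CPM in normoxic and 53.0, 57.1 and 56.3 CPM in hypoxic samples. The groups were tight and far apart, with a log2 fold change of 0.91 ± 0.07 (SE, edgeR adjusted p = 5.29e-06). Its exons share 552 bases with Zmynd15 on the opposite strand, and Zmynd15 rose from 2.90 to 12.1 CPM. Since counting by strand is not stated, a part of either gene's reads could belong to the other.

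Cx3cl1 (ENSMUSG00000031778, chr8:94772009-94782427, plus strand), or fractalkine, which tethers cells that bear CX3CR1, was the only tested ligand outside the CC family called lower. It had 36.3, 28.4 and 33.7 CPM in normoxic and 23.2, 18.9 and 19.2 CPM in hypoxic samples. All hypoxic samples were lower, with a log2 fold change of -0.69 ± 0.11 (SE, edgeR adjusted p = 0.000534). Cxcl14, a ligand of epithelia and fibroblasts, spread widely in both groups, with 3.08, 6.64 and 6.65 CPM in normoxic and 4.32, 11.4 and 6.76 CPM in hypoxic samples. The groups overlapped, and the log2 fold change was 0.47 ± 0.37 (SE, edgeR adjusted p = 0.289).

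Pf4 (ENSMUSG00000029373, chr5:90772435-90773383, plus strand), or Cxcl4, is best known from platelet granules and is also made by some macrophages. It had 3.73, 8.24 and 6.21 CPM in normoxic and 11.8, 26.4 and 14.1 CPM in hypoxic samples, without overlap and with replicate 2 the highest in both groups. The log2 fold change was 1.53 ± 0.34 (SE, edgeR adjusted p = 0.0035). Of 7 platelet and megakaryocyte markers, all 4 that could be tested, the receptor genes Itga2b, Gp1ba, Gp1bb and Itgb3, were higher, beside 18.9% of all tested genes, and the list summed to 19.1 to 22.9 CPM in normoxic and 60.8 to 64.1 CPM in hypoxic samples. The more restricted platelet genes Gp9, Gp6 and Tubb1 had at most 2 counts in a sample. Per 1000 counts of the summed macrophage markers, a ratio added after the values were seen, Pf4 had 3.37 to 4.18 counts in normoxic and 19.98 to 25.2 counts in hypoxic samples. The part of either cell type in this rise was not tested.

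Of the XC and remaining CXC ligands, Cxcl13, the B cell attractant, had 6, 19 and 13 counts in normoxic and 0, 4 and 0 counts in hypoxic samples. It was below the filter, and without the filter its log2 fold change was -3.35 (edgeR adjusted p = 0.0014), a fitted value that depends on the prior count. Cxcl17 had 1 count in a single normoxic sample, and Xcl1 had none.

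The genes listed here as ligands of CCR2 split. Ccl2 and Ccl7 rose while Ccl12 fell, and Ccl8 was not called, although all 4 genes lie within one stretch of chromosome 11. They were placed together by a list, and which receptor each binds was not examined. Ccl2 is the main one by which stroma draws monocytes in.

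Ccl2 (ENSMUSG00000035385, chr11:82035571-82037453, plus strand) had 72.6, 98.7 and 85.6 CPM in normoxic and 273, 310 and 336 CPM in hypoxic samples. The groups were far apart, and the mean rose 3.58-fold, from 85.6 ± 13.0 to 306 ± 31.4 CPM (SD, n = 3 per group), with a log2 fold change of 1.84 ± 0.12 (SE, edgeR adjusted p = 1.85e-06). Ccl7 (ENSMUSG00000035373, chr11:82045712-82047525, plus strand), its neighbor, had 42.4, 49.6 and 47.5 CPM in normoxic and 86.4, 92.5 and 112 CPM in hypoxic samples. It too did not overlap, and rose 2.09-fold with a log2 fold change of 1.06 ± 0.10 (SE, edgeR adjusted p = 2.35e-05).

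Ccl8 (ENSMUSG00000009185, chr11:82115185-82116799, plus strand) had 50.7, 45.9 and 51.3 CPM in normoxic and 37.5, 32.2 and 41.2 CPM in hypoxic samples. All hypoxic samples were lower, and the log2 fold change of -0.41 ± 0.09 (SE, edgeR adjusted p = 0.00328) fell short of the 1.5-fold limit, so it was not called. Ccl12 (ENSMUSG00000035352, chr11:82101845-82103400, plus strand) had 5.81, 14.7 and 10.5 CPM in normoxic and 1.81, 5.58 and 3.52 CPM in hypoxic samples. The groups did not overlap, although hypoxic replicate 2 came close to normoxic replicate 1, and the log2 fold change was -1.49 ± 0.40 (SE, edgeR adjusted p = 0.00941). Ccl12 followed the order of the macrophage marker sum in both groups, and per 1000 counts of those markers it had 5.24 to 7.46 counts in normoxic and 3.15 to 5.33 counts in hypoxic samples, which overlapped.

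Another group of inflammatory CC ligands is that of Ccl3, Ccl4, Ccl5, Ccl6, Ccl9, Ccl11, Ccl24 and Ccl26. Of these 8 genes, 5 could be tested, 4 of them (Ccl9, Ccl3, Ccl4 and Ccl11) were lower in hypoxic samples, none was higher, and Ccl6 was not called, beside 15.3% lower and 18.9% higher among all tested genes. Their median log2 fold change was -1.10. Ccl3 and Ccl4 are made mainly by myeloid cells and lymphocytes, Ccl6 and Ccl9 are CCR1 ligands of mouse macrophages, and Ccl11, or eotaxin, draws eosinophils through CCR3 and is made by fibroblasts.

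Ccl9 (ENSMUSG00000019122, chr11:83572919-83578636, minus strand) had 87.3, 132 and 97.4 CPM in normoxic and 13.2, 24.5 and 15.2 CPM in hypoxic samples. The highest hypoxic sample was far below the lowest normoxic one. The mean was 5.99-fold lower, with a log2 fold change of -2.58 ± 0.23 (SE, edgeR adjusted p = 1.44e-05), the lowest of the 24. Its near neighbor Ccl6 (ENSMUSG00000018927, chr11:83587882-83593087, minus strand) had 46.01, 89.9 and 71.9 CPM in normoxic and 36.8, 72.8 and 50.8 CPM in hypoxic samples, which overlapped, with a log2 fold change of -0.37 ± 0.27 (SE, edgeR adjusted p = 0.252). Ccl3 (ENSMUSG00000000982, chr11:83647844-83649355, minus strand) had 2.16, 4.10 and 3.16 CPM in normoxic and 0.825, 1.69 and 1.01 CPM in hypoxic samples. These did not overlap, and the log2 fold change was -1.40 ± 0.32 (SE, edgeR adjusted p = 0.00432). Ccl4 (ENSMUSG00000018930, chr11:83662584-83664683, plus strand) had 1.00, 2.88 and 2.23 CPM in normoxic and 0.628, 1.34 and 0.849 CPM in hypoxic samples. Normoxic replicate 1 lay within the hypoxic range, the log2 fold change was -1.10 ± 0.41 (SE, edgeR adjusted p = 0.0405), and the call was lost in limma-voom (adjusted p = 0.0698) and without hypoxic replicate 1, hypoxic replicate 3, normoxic replicate 2 or normoxic replicate 3 (edgeR adjusted p from 0.102 to 0.138).

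Ccl6, Ccl3, Ccl4, Ccl12 and Ccl9 shared the order of the macrophage marker sum, with replicate 2 highest and replicate 1 lowest in both groups. Cxcl12 and Pf4, which rose, and Ccl19, which was not called, had the same order, so it was not particular to ligands that fell. How many of all tested genes share the order of these markers was not counted. Set per 1000 counts of those markers, Ccl9 had 62.7 to 78.7 counts in normoxic and 21.5 to 23.4 counts in hypoxic samples, so the groups stayed apart on that scale. Ccl3 had 1.94 to 2.08 counts in normoxic and 1.42 to 1.61 counts in hypoxic samples on the same scale, and Ccl4 had 0.903 to 1.47 and 1.09 to 1.28 counts, which overlapped. Ccl6 changed direction on it, from 41.5 to 46.3 counts in normoxia to 64.0 to 71.9 counts in hypoxia. The means of other ligands that were lower in CPM turned as well. On this scale they were 1.51 times as high in hypoxia for Ccl8, 1.32 for Ccl11, 1.24 for Cx3cl1, 1.78 for Ccl19 and 1.73 for Ccl28. The marker sum had a mean of 1543 CPM in normoxia and 776 CPM in hypoxia. Most of it was Lyz2, so these values are set largely by that gene. The macrophage markers did not all move alike, since Lyz2 fell from 900 to 413 CPM and C1qa from 84.9 to 35.2 CPM, while Csf1r stood at 40.4 and 34.2 CPM and Itgam at 39.2 and 39.0 CPM without being called. How much of each ligand's change came with a change in macrophage RNA was not tested.

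**Figure D3:**
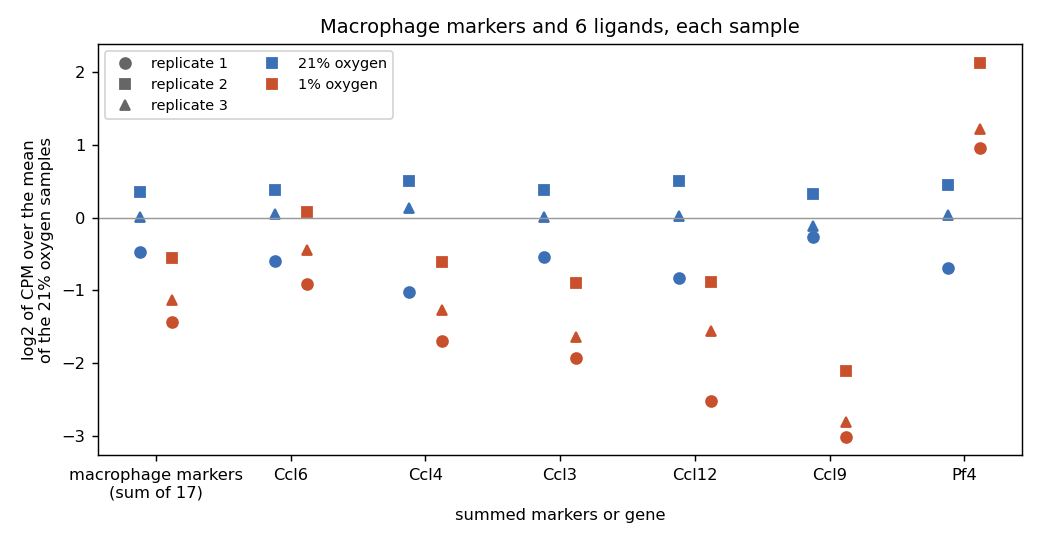
Summed macrophage markers and 6 ligand genes in each sample, as log2 of CPM over the mean of the 21% oxygen samples, with marker shapes for replicates 1 to 3. The 3 points at 1% oxygen lie below the 3 at 21% for the marker sum, Ccl3, Ccl12 and Ccl9, overlap with them for Ccl6 and Ccl4, and lie above them for Pf4.

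Ccl11 (ENSMUSG00000020676, chr11:82057823-82062955, plus strand) did not follow that order, with replicate 2 the lowest in both groups. It had 78.3, 68.3 and 75.2 CPM in normoxic and 51.6, 36.6 and 55.4 CPM in hypoxic samples, without overlap. The log2 fold change was -0.63 ± 0.13 (SE, edgeR adjusted p = 0.00292), just past the 1.5-fold limit, and without hypoxic replicate 2 it was -0.47 and no longer called. Ccl24, also an eosinophil attractant, had 9, 9 and 13 counts in normoxic and 4, 1 and 3 counts in hypoxic samples and was below the filter, and without the filter its log2 fold change was -2.12 (edgeR adjusted p = 0.00912). Ccl5 had at most 7 counts in a sample and Ccl26 had none.

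Among the CC ligands with other receptors, Ccl27a and Ccl25 rose. Ccl27a (ENSMUSG00000073888, chr4:41769467-41774247, minus strand), a ligand of CCR10 known from skin, had 4.89, 6.19 and 5.19 CPM in normoxic and 14.7, 17.4 and 19.1 CPM in hypoxic samples. The groups were well apart, with a log2 fold change of 1.65 ± 0.13 (SE, edgeR adjusted p = 8.02e-06). Il11ra1, which lies across its locus on the opposite strand and shares 8 bases of exon with it, moved the other way, from 229 to 166 CPM. Ccr10, the receptor of Ccl27a, rose from 1.07 ± 0.305 to 2.0 ± 0.174 CPM (SD, n = 3 per group), with a log2 fold change of 0.91 ± 0.25 (SE, edgeR adjusted p = 0.0113). Ccl25 (ENSMUSG00000023235, chr8:4325210-4360020, plus strand), the CCR9 ligand of thymus and small intestine, had 3.46, 3.23 and 3.49 CPM in normoxic and 6.40, 6.96 and 6.07 CPM in hypoxic samples. It did not overlap, with a log2 fold change of 0.93 ± 0.13 (SE, edgeR adjusted p = 0.000235), and shares 204 bases of exon with Elavl1 on the opposite strand, which stood at 52.8 and 50.5 CPM.

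The lymph node ligand Ccl19 and the mucosal ligand Ccl28 were near 1 CPM and did not pass the test. Ccl19 had 0.693, 1.52 and 1.38 CPM in normoxic and 0.707, 1.44 and 1.04 CPM in hypoxic samples, a log2 fold change of -0.16 ± 0.36 (SE, edgeR adjusted p = 0.716). Ccl28 had 0.731, 0.873 and 0.893 CPM in normoxic and 0.393, 0.734 and 1.07 CPM in hypoxic samples, a log2 fold change of -0.16 ± 0.36 (SE, edgeR adjusted p = 0.714). The groups of both genes overlapped, and 18 to 45 counts of Ccl19 and 10 to 34 counts of Ccl28 a sample lay behind these values.

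Copies of Ccl27 and Ccl21 on unplaced scaffolds share nearly all of their sequence with genes on chromosome 4, so reads may be divided among them in a way that the counts do not show. The Ccl27 copy on scaffold JH584293.1 (ENSMUSG00000095247) had 6, 0 and 10 counts in normoxic and 20, 36 and 27 counts in hypoxic samples and was called higher (log2 fold change 2.13 ± 0.61, SE, edgeR adjusted p = 0.0126). At these low counts the log2 fold change was 1.54 without normoxic replicate 2 and 2.97 without normoxic replicate 3, both still called, and the copy did not pass a filter of 1 CPM in 3 samples. It passed the main filter only through the hypoxic samples, where it was higher, so its call is not independent of the filter. With only rows placed on chromosomes, 10 ligands were called higher in place of 11. Summed over 4 annotated Ccl27 copies, the counts were 133, 163 and 138 in normoxic and 395, 581 and 638 in hypoxic samples, a ratio of mean CPM of 3.20. The Ccl21b copy on scaffold GL456350.1 (ENSMUSG00000096271) had 45, 20 and 43 counts in normoxic and 82, 4 and 130 counts in hypoxic samples, with hypoxic replicate 2 far below all others. It was not called (log2 fold change 0.81 ± 0.78, SE, edgeR adjusted p = 0.387), but was called without that sample (log2 fold change 1.37, edgeR adjusted p = 0.00784). Over 9 annotated copies, the 6 Ccl21 rows and Gm13304, Gm21541 and Gm10591 on chromosome 4, which lie outside the 46 ligand rows, the counts were 45, 62 and 66 in normoxic and 129, 68 and 131 in hypoxic samples. Gm13304 gave 0, 42 and 23 of these in normoxic and 28, 58 and 0 in hypoxic samples. In CPM the sum was 1.73, 2.35 and 2.68 in normoxic and 5.07, 2.17 and 4.12 in hypoxic samples, so the groups overlapped and hypoxic replicate 2 was again the lowest of its group.

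To compare levels between genes, CPM was divided by the length of each gene's exons in kilobases. The summed level of all ligands on this scale was 442, 547 and 509 CPM per kilobase in normoxic and 716, 827 and 893 CPM per kilobase in hypoxic samples, higher in all 3 hypoxic samples. The genes listed as ligands of CCR2 made up the largest part, with between 48.6% and 51.4% of the sum in normoxic and between 55.8% and 59.3% in hypoxic samples. Ccl8 alone held 22.5%, 16.4% and 19.7% in normoxic and 10.3%, 7.63% and 9.03% in hypoxic samples. The size of the normoxic share thus depends on placing Ccl8 in this group. Within the group the order changed. In normoxia Ccl8 led all ligands at 96.5 CPM per kilobase, ahead of Ccl2 at 75.2, Ccl11 at 68.3 and Ccl7 at 58.0. The samples of Ccl2 and Ccl11 overlapped, so these neighbors could not be set in order, and with the longest transcript as length Ccl2 was above Ccl8 in normoxic replicate 2. In hypoxia Ccl2 led at 269 CPM per kilobase, followed by Ccl7 at 121, Cxcl12 at 78.2, Ccl8 at 72.4 and Cxcl1 at 66.6, and by the spread between samples the last 3 could not be set in order. This depends on the length used, since with the longest transcript as length the share of Cxcl12, 10.7%, 15.6% and 11.9%, was above those of Ccl8 and Cxcl1 in all 3 hypoxic samples and above that of Ccl7 in replicate 2.

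The ligands of CXCR2 went from 5.14%, 4.73% and 5.16% of the summed length-scaled level to 14.5%, 12.2% and 15.7%. The group of Ccl3, Ccl4, Ccl6, Ccl9 and Ccl11 with its untested members went the other way, from 29.8%, 30.5% and 29.4% to 10.4%, 10.5% and 9.77%. Neither pair of ranges overlapped. Cxcl12 alone held 6.52%, 9.03% and 7.78% in normoxic and 7.99%, 11.9% and 8.85% in hypoxic samples, which overlapped, since the whole sum rose with it. Cxcl12 has a long exon sequence, so although it led in counts it did not lead on the length-scaled level.

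**Figure D4:**
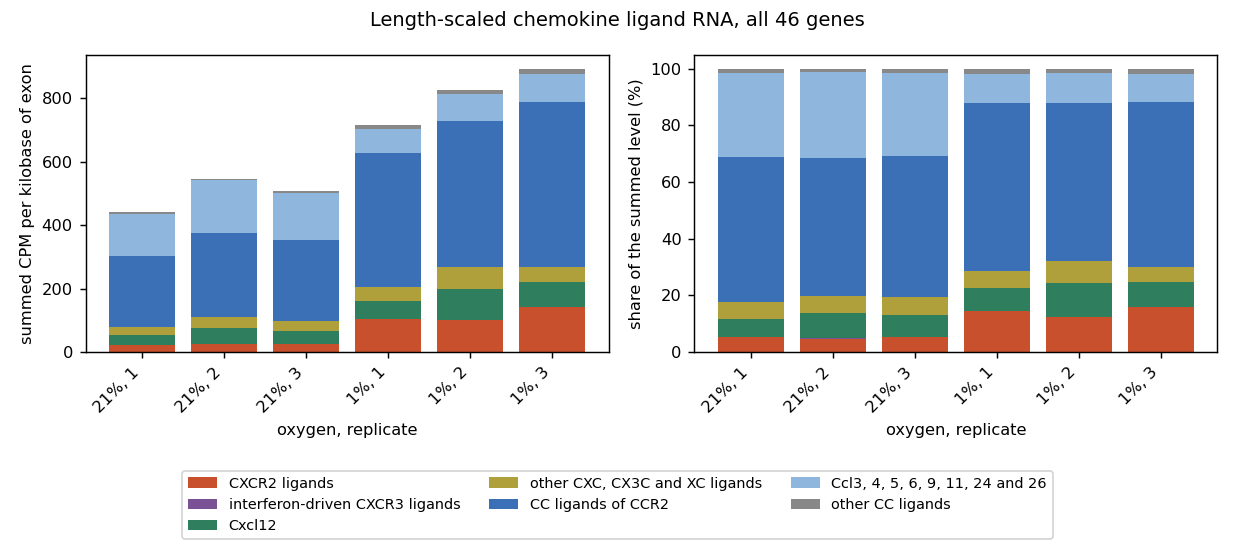
Left, summed CPM per kilobase of exon over all 46 ligand rows in each sample, stacked by receptor group. Right, the same as a share of the sum in percent, in which CXCR2 ligands go from between 4.73% and 5.16% at 21% oxygen to between 12.2% and 15.7% at 1%, and the group of Ccl3, Ccl4, Ccl5, Ccl6, Ccl9, Ccl11, Ccl24 and Ccl26 (pale blue) from between 29.4% and 30.5% to between 9.77% and 10.5%.

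Many of the ligand genes lie in a pair of chromosomal regions. On chromosome 5, 7 ligand genes lie within 147 kilobases (chr5:90759360-90905938). All 4 of them that could be tested, Cxcl5, Pf4, Cxcl1 and Cxcl2, were higher in hypoxic samples, with log2 fold changes from 1.53 to 3.52. On chromosome 11, 11 CC ligand genes lie between positions 82035571 and 83664683. Ccl2, Ccl7, Ccl11, Ccl12, Ccl8 and Ccl1 come first, and Ccl5, Ccl9, Ccl6, Ccl3 and Ccl4 follow, the start of Ccl5 being 1490 kilobases from that of Ccl2. Of the 9 tested, Ccl2 and Ccl7 at the outer end were higher, Ccl11, Ccl12, Ccl9, Ccl3 and Ccl4 were lower, and Ccl8 and Ccl6 were not called. Both counts stand beside 18.9% higher and 15.3% lower among all tested genes. The start of Ccl11, which fell, is 22.3 kilobases from that of Ccl2, which rose.

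**Figure D5:**
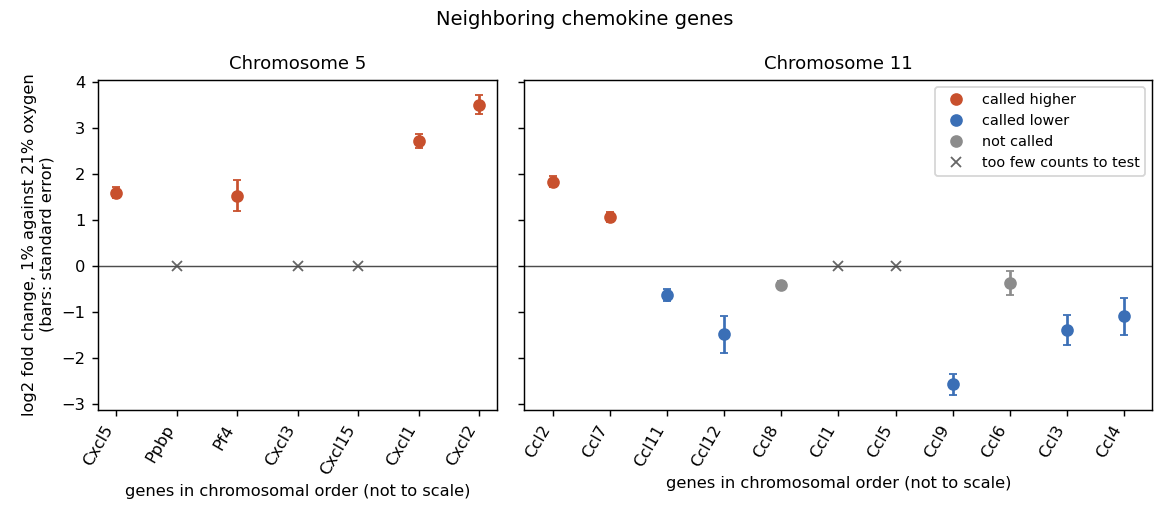
Log2 fold change with bars of 1 standard error for ligand genes in chromosomal order, not to scale, on chromosome 5 (left) and chromosome 11 (right). Crosses at the zero line mark genes with too few counts to test, so they give no value. All 4 tested genes on chromosome 5 are higher at 1% oxygen, while on chromosome 11 Ccl2 and Ccl7 are higher and 5 genes are lower.

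Of 23 chemokine receptor genes, 9 could be tested, of which 4 were higher in hypoxic samples, 1 was lower and 4 were not called, beside 18.9% higher and 15.3% lower among all tested genes. Besides Ackr3, Cxcr4 and Ccr10, the other one that rose was Ackr2, a scavenger of inflammatory CC ligands, from 4, 2 and 3 counts in normoxic to 18, 16 and 22 counts in hypoxic samples (log2 fold change 2.39 ± 0.40, SE, edgeR adjusted p = 0.000711). Ackr2 passed the count filter only through the hypoxic samples, where it was higher, so its call is not independent of the filter. Ccr2, named after its values were seen as the receptor of Ccl2, had 1, 2 and 3 counts in normoxic samples and none in hypoxic samples.

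Genes that act upstream of chemokine transcription were counted in the same way. Of 44 listed genes of interleukin-1, tumor necrosis factor, Toll-like receptor, interferon, NF-kB, STAT and HIF signaling, all 44 were tested, 18 were higher, 4 were lower and 22 were not called, beside 18.9% higher and 15.3% lower among all tested genes. The highest log2 fold changes were those of the NF-kB target and inhibitor Tnfaip3, from 7.20 ± 0.582 to 45.8 ± 4.10 CPM (SD, n = 3 per group), at 2.67 ± 0.09 (SE, edgeR adjusted p = 7.85e-08), and of Nfkbiz, a nuclear cofactor of NF-kB, at 2.04 ± 0.12 (SE, edgeR adjusted p = 1.5e-06). Cebpd, a transcription factor of inflammation, followed at 1.75 ± 0.09 (SE, edgeR adjusted p = 6.38e-07) and Nfkbia, the inhibitor that NF-kB itself induces, at 1.62 ± 0.06 (SE, edgeR adjusted p = 6.94e-08). Those that fell included Epas1, which encodes HIF2A, at -1.04 ± 0.05 (SE, edgeR adjusted p = 6.38e-07), and the receptor genes Il1r1 and Tnfrsf1a, at -0.64 and -0.61.

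Of the 22 ligand rows that were not tested, 7 had no counts in any sample and 15 had at most 19 counts in a sample. Those at 0 were Xcl1, Cxcl15, Ccl26, Ccl21b on chromosome 4 and the scaffold copies of Ccl19, Ccl21a and Ccl27 on JH584294.1, and 0 counts allow a level of up to 3 counts, or 0.0943 to 0.122 CPM. Ccl20, the CCR6 ligand of epithelia, had 5, 0 and 1 counts in normoxic and 2, 1 and 4 counts in hypoxic samples. Ccl1, Ccl17, Ccl22 and Cxcl17, ligands of T cell subsets and mucosa, had at most 1 count in a sample. Ccl27b had 1, 1 and 3 counts in hypoxic samples and none in normoxic samples. Ccl21a on chromosome 4 had 1 count in all, and the copies Ccl21c and Ccl21b on GL456350.1 and JH584293.1 had 3 counts each, all in hypoxic replicate 2. For Ccl20, Ccl1, Ccl17, Ccl22, Cxcl17, Ccl27b and these Ccl21 copies no difference was detectable at this depth, and such limits cover counting error only.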

How the data were processed

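PSC libraries were made from poly(A) RNA and sequenced on a NovaSeq-6000. Per the submitters' processing notes and the study's methods, the authors trimmed reads with Cutadapt, mapped them to GRCm38 with STAR (2.6.1b) and estimated gene counts with RSEM (1.3.1). The strand setting and the annotation release are not given in the sources used here. The table that the authors deposited holds expected counts (RSEM estimates, without normalization) for 55426 features. None of the values had a fraction (0 values), so rounding changed nothing. Gene names and coordinates came from GENCODE release M21, which held 55240 of the identifiers and lacked 186.

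The fit ran over the whole table with edgeR (4.0.16, with R 4.3.3): filterByExpr, TMM factors, and quasi-likelihood F tests in a model without a replicate block, with Benjamini-Hochberg adjustment over 16207 genes. Genes were called at a fold change beyond 1.5 and an adjusted p under 0.05. Standard errors are the absolute log2 fold change over the root of F. CPM scale counts to 1000000 TMM-adjusted counts of the tested genes. With 3 samples against 3, an exact two-sided permutation test of a single gene cannot go below p = 0.1, so none was used. Library totals ran from 24749601 to 31925054 counts. The libraries carried no stated molecular identifiers, so limits given by counts cover counting error only.

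Alternatives were DESeq2 (1.42.0), limma-voom (limma 3.58.1), RLE and upper-quartile scaling, other filters and fold change thresholds, a replicate block, and leaving out each sample. The scripts were tested on simulated data. Every ligand gene was named. From each other list, counts were given with at most 4 called genes of each direction, those with the largest log2 fold change. The ligands and the lists were chosen with earlier results of these data known. Promoter windows are from RefSeq on GRCm38.p6. The planned look at protein sequences was not made. Of the ELR members, promoters were printed in place of proteins for Cxcl1 and Cxcl2, and that of Cxcl10 was added. Some genes of the receptor and upstream lists are not reported here by name.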

Additional observations from a re-analysis of the deposited data

How the results depend on the processing

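The count of genes called in the whole table was 10168 without a fold change threshold and 3156 at a fold change of 2, against 5547 at 1.5, as fewer or more genes pass the threshold by construction. At a fold change of 2, Cxcl12 (log2 fold change 0.99) was no longer called, nor were Ccl11, Ccl25, Cx3cl1 and Cxcl16, and Ccl8 (-0.41) was called with no threshold. The sign of 3 ligands that were not called turned: Ccl19 ran from -0.44 to 0.05 when each sample was left out, with 0.0485 without hypoxic replicate 1 and 0.0486 without normoxic replicate 2, Ccl28 ran from -0.54 to 0.12, the latter without hypoxic replicate 1, and the Ccl21b scaffold copy at -0.17 in limma-voom; the cause was not tested. Cxcl10 passed the threshold with no filter on low counts (edgeR adjusted p = 0.0285), with at least 1 CPM in 3 samples (0.0488), without hypoxic replicate 3 (0.0328) and without normoxic replicate 2 (0.0270). Ccl4 lost its call in limma-voom and without any 1 of 4 samples, as given above. DESeq2, RLE and upper-quartile scaling gave the same call for all 24 tested ligands. With the longest transcript as length, the normoxic share of Cxcl12 was 10.5% in place of 7.78%, and that of Cxcl1 1.87% in place of 2.01%.

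Deviations from the group mean over 16207 genes correlated at 0.142, 0.139 and 0.0378 between same-numbered samples 1 to 3. Each sample correlated best with its own number, a hint from the data and not from the design, and the labels do not say that the numbers mark a pair. A fit with the replicate block called 5572 genes and 12 ligands as higher, the added one being Cxcl10 (log2 fold change 1.01, edgeR adjusted p = 0.0104). With the block in DESeq2, Cxcl10 was not called (adjusted p = 0.0649) and 11 ligands were higher. The block changed no other ligand's call. Ligands under about 20 counts a sample are limited by depth.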

Other observations

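Other factors that attract leukocytes, and a receptor of one of them, were counted in the same fit. Of 17 listed genes that are not chemokines, 15 could be tested, 6 were higher in hypoxic samples, 2 were lower and 7 were not called, beside 18.9% higher and 15.3% lower among all tested genes. Lcn2, an iron-binding protein of inflamed tissue, had 1.66, 3.57 and 2.47 CPM in normoxic and 45.5, 73.0 and 63.9 CPM in hypoxic samples, a log2 fold change of 4.56 ± 0.25 (SE, edgeR adjusted p = 8.22e-07). Saa3, an acute phase protein and a marker of inflammatory fibroblasts, rose from 845 ± 181 to 4020 ± 354 CPM (SD, n = 3 per group), for a log2 fold change of 2.25 ± 0.15 (SE, edgeR adjusted p = 2.38e-06). The groups of both genes lay far apart. Rarres2, which encodes the attractant chemerin, had 60.6, 118 and 79.5 CPM in normoxic and 178, 346 and 236 CPM in hypoxic samples, with replicate 2 highest in both groups (log2 fold change 1.56 ± 0.27, SE, edgeR adjusted p = 0.000925). Il16 rose from 3.29 ± 0.745 to 7.38 ± 0.877 CPM (SD, n = 3 per group), with a log2 fold change of 1.17 ± 0.18 (SE, edgeR adjusted p = 0.000469). Saa2 fell by 0.87 and C5ar1, the receptor of complement C5a on myeloid cells, fell by 0.72 on the log2 scale (edgeR adjusted p = 0.0323 and 0.0252). The macrophage marker sum was 0.503 times as high in hypoxic samples, and its part in the fall of C5ar1 was not tested.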
